A study of Mus musculus with 4 samples.

Results

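The interferon-induced ligands of the chemokine receptor Cxcr3 (Cxcl9, Cxcl10 and Cxcl11) and Cxcr3 itself were read from single-cell RNA sequencing of mouse heart grafts, by taking the rows of the gene table that carry these symbols. Of the 4 genes, 3 had a row among the 30905 genes of the matrix, and Cxcl11 had none and is not analysed here. The series holds 2 allogeneic grafts, labelled with the strain Balb/C, and 2 syngeneic grafts, labelled with the strain C57BL/6J, all taken at day 5 after transplantation. Donor hearts of male mice aged 8 to 10 weeks were placed in the abdomen of C57BL/6J recipients in both arms, and the sources name no altered allele and no agent for any of the groups. Whole grafts were digested with enzymes, so each suspension mixed cells of the donor heart with cells of the recipient that had entered it, and the 2 sources were not told apart.

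The deposited matrix pools the grafts. Its barcodes carry the suffixes 1 to 4, which mark 4 libraries, but no label or file used here ties a suffix to a graft. Allogeneic and syngeneic grafts were therefore not compared, the libraries were not treated as replicates of a group, and no p-value was computed. Values are given for each library, and each level comes with a 95% exact Poisson interval or each share with an exact Clopper-Pearson interval where its precision matters. These intervals cover counting error only. Library totals ran from 96020294 to 166079145 UMIs (unique molecular identifiers, which count captured transcripts), and 42395 of 53824 cells were kept. Library 4 stood apart from the others in its make-up, with 54.2% macrophage-like and 6.40% endothelial-like cells, where libraries 1 to 3 held 43.5% to 48.1% endothelial-like cells. Any pair of libraries shared 40 to 60 barcodes. The tissue label was met by cells with cardiomyocyte markers (380 cells), fibroblast markers (5282 cells) and Schwann cell markers (969 cells).

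Chemokines of this group are small secreted proteins that draw in lymphocytes. Interferon gamma, made chiefly by activated T cells and natural killer (NK) cells, acts through the kinases Jak1 and Jak2, and transcription factors that include Irf1 then switch on Cxcl9, Cxcl10 and Cxcl11. Cxcl9 is known to depend most on interferon gamma, while Cxcl10 also answers type I interferon and NF-kB. Their shared receptor, Cxcr3, is a G protein-coupled receptor found on activated T cells and NK cells, and the ligands and receptor are long known in the study of graft rejection.

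The genes of the 3 ligands lie side by side. In the mouse build GRCm38 Cxcl9 (ENSMUSG00000029417) covers chr5:92321347-92328079, Cxcl10 (ENSMUSG00000034855) covers chr5:92346638-92348889 and Cxcl11 (ENSMUSG00000060183) covers chr5:92359544-92365485, all on the minus strand. Gaps of 18558 and 10654 bases part them. Sdad1 lies 10867 bases beyond Cxcl9 and Nup54 lies 50054 bases beyond Cxcl11. Cxcr3 (ENSMUSG00000050232) covers chrX:101731535-101734269, also on the minus strand. The annotation types Cxcl11 as a polymorphic pseudogene, a class for genes that are intact in some strains and broken in others, and 1 of 82 genes of that type had a row in the matrix, against 21880 of 21951 protein-coding genes. Art3, an ADP-ribosyltransferase gene on the plus strand (chr5:92331827-92414628), spans Cxcl10 and Cxcl11. Its level was highest in pericyte-like cells in libraries 1 to 3 and its correlation with Cxcl10 over classes and libraries was 0.03.

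The 250 bases before the annotated start of Cxcl9 and of Cxcl10 are shown because they carry different sets of exact matches to motifs that interferons and NF-kB act through. The letters are those of RefSeq on GRCm38.p6, read in the direction of each gene, at chr5:92328080-92328329 for Cxcl9 and chr5:92348890-92349139 for Cxcl10. Capitals mark an ISRE core (the interferon-stimulated response element, searched as GAAANNGAA) or an NF-kB motif.
Cxcl9: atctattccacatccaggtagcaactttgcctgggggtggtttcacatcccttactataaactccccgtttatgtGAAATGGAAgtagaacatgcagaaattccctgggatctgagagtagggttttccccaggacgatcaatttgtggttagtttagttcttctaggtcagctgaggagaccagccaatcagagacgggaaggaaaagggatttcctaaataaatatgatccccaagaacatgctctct
Cxcl10: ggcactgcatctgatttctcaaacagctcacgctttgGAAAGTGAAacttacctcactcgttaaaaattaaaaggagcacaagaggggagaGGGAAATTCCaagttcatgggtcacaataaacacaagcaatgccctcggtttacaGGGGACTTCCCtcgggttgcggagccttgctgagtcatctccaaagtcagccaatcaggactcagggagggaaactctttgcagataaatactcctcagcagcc

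Both promoters held an ISRE core, 175 to 167 bases before the start in Cxcl9 and 213 to 205 bases before it in Cxcl10. Cxcl10 also held NF-kB matches at 159 to 150 and 104 to 94 bases before the start, the latter made of overlapping matches on both strands, and Cxcl9 held none. Among 32536 mouse promoters of this length, searched on both strands, 7.15% held an ISRE core, 7.28% an NF-kB motif and 0.363% both. The GAS motif (the interferon gamma-activated site, searched as TTCNNNGAA) was in neither ligand promoter and in 7.04% of all promoters. None of the motifs was found in the 250 bases before the RefSeq start of Cxcr3 (chrX:101734148-101734397), a window that in part lies within the gene as placed above, since the annotations set its start differently. A match is a run of letters in this window and not a measured binding site. The lack of an exact match does not show that a site is absent.

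Cells were clustered with the 3 measured genes and other interferon and antigen-presentation genes left out of the variable genes (73 left out), and clusters were named from marker genes. Of 28 clusters, 25 took 1 of 12 class names and 3 stayed unnamed. Names carry "-like" because they rest on transcripts. The cells of a class often sat in different clusters in different libraries. The endothelial-like cells of library 4 (687 cells) came almost all from cluster 22, those of library 2 from clusters 4 and 6, and those of libraries 1 and 3 mostly from clusters 1 and 2. Macrophage-like cells of library 4 came from clusters 3 and 5, those of library 2 mainly from cluster 14 and those of libraries 1 and 3 mainly from cluster 12.

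Cluster 22 was checked first, because the highest Cxcl9 level of any class rests on it. It passed 4 of the endothelial markers (Cdh5, Pecam1, Egfl7 and Kdr) and did not pass Gpihbp1, Tie1, Emcn and Cldn5. Its leading genes were Ubd, Gbp2b, Cxcl9, Tpm3-rs7 and Wars, several of them known interferon targets. Cdh5, the cadherin of endothelial junctions, stood at 792 CPM (UMIs of a gene per 1000000 non-mitochondrial UMIs of the cells) in the endothelial-like cells of library 4 and was seen in 91.6% of them, against 1098 CPM in library 1 and 3.20 CPM in the macrophage-like cells of library 4. The complement genes C1qa, C1qb and C1qc, which mark macrophages, reached 3.09% to 3.54% of their macrophage level there. The markers not passed, Gpihbp1, Tie1, Emcn and Cldn5, stood at 593, 124, 288 and 483 CPM in the endothelial-like cells of library 4. In those of library 1 they stood at 1222, 452, 593 and 822 CPM. Of the other passed markers, Pecam1 and Kdr were also lower in library 4, and Egfl7 was not (1135 against 1104 CPM). Under 3 of 6 other clusterings these cells merged into a larger cluster that passed under 3 markers of any class and stayed unnamed, so the endothelial values of library 4 exist under this naming and the other 3.

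Cxcl9 was highest in endothelial-like cells in each of the 4 libraries, among classes with at least 50 cells in a library. Its level in endothelial-like cells was 480.0 CPM in library 1, 21.4 CPM in library 2, 185 CPM in library 3 and 10030 CPM in library 4. In macrophage-like cells it was 134 CPM in library 1, 0.941 CPM in library 2, 33.1 CPM in library 3 and 3203 CPM in library 4. Within every library the counting intervals of the 2 classes were apart, and the ranges over libraries overlapped because the libraries differed from each other far more than the classes did.

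The pooled values ran the other way. Over all cells Cxcl9 stood at 2259 CPM in macrophage-like and 926 CPM in endothelial-like cells, since library 4 supplied 5819 of 8543 macrophage-like cells and 687 of 15148 endothelial-like cells. With the libraries weighted equally the means were 2679 CPM in endothelial-like and 843 CPM in macrophage-like cells. On the scale of CPM + 10, the level in endothelial-like over that in macrophage-like cells was 3.41-fold in library 1, 4.52-fold in library 3 and 3.12-fold in library 4. Library 2 lay under the 50 CPM needed for this fold. A share of all tested genes passed 2-fold in the same direction, 26.1% in library 1, 25.7% in library 3 and 21.1% in library 4, so Cxcl9 was among many genes that passed.

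**Figure D1:**
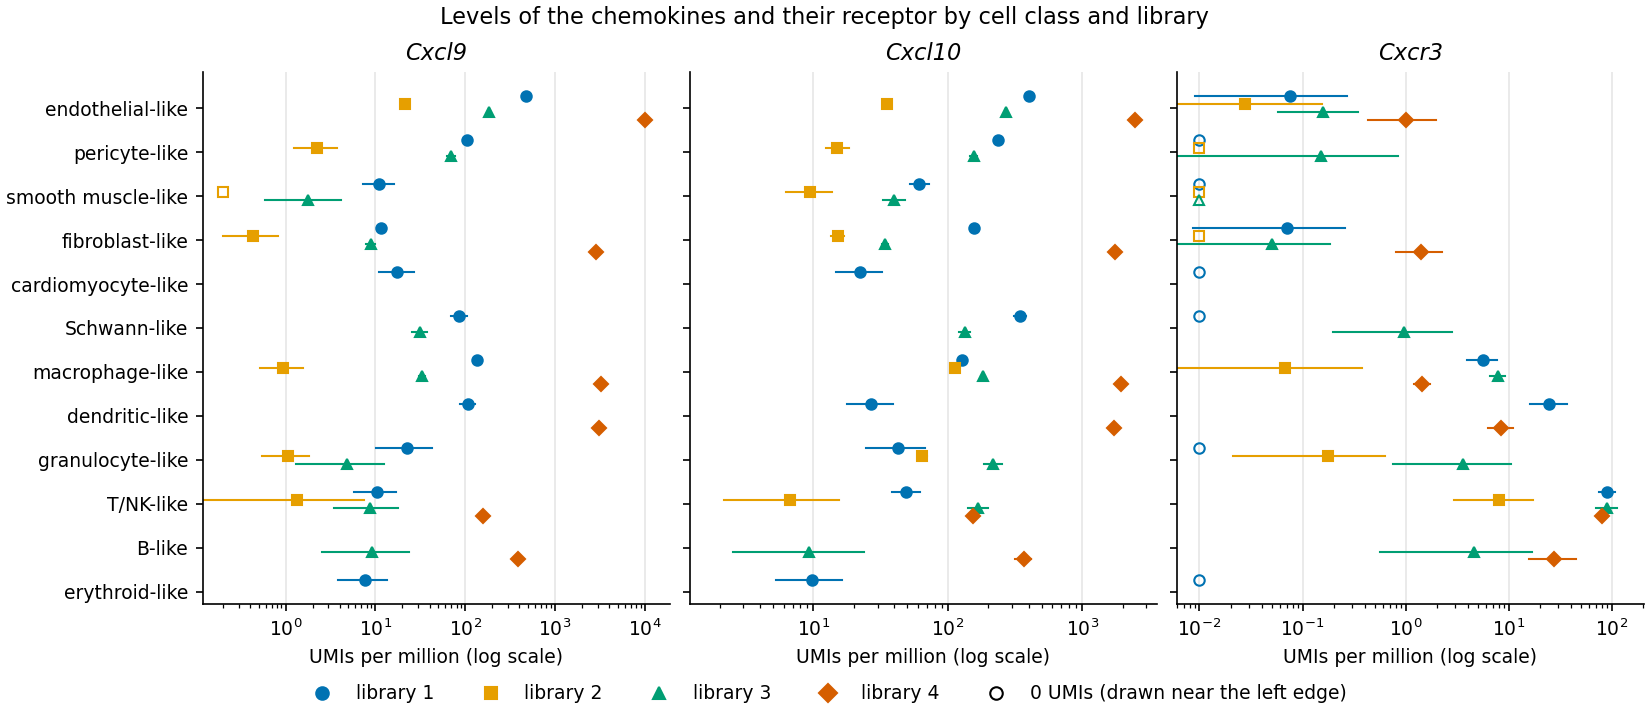
Level (CPM, log axis) of Cxcl9, Cxcl10 and Cxcr3 in each marker-defined class, with 1 point for each library that had at least 50 cells of the class and bars for 95% exact Poisson intervals, which are clipped at the left edge. Open symbols near that edge have 0 UMIs, library 4 lies to the right for Cxcl9 in each class it has (10030 CPM in endothelial-like cells), and Cxcr3 stands highest in T/NK-like cells.

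Other vascular and stromal cells carried Cxcl9 as well. In pericyte-like cells, the contractile cells around capillaries, it was 103 CPM in library 1, 2.24 CPM in library 2 and 69.6 CPM in library 3, and the 49 pericyte-like cells of library 4 gave 5204 CPM. Fibroblast-like cells had 11.7, 0.437 and 8.82 CPM in libraries 1 to 3 and 2855 CPM in library 4, the widest gap between library 4 and the rest for Cxcl9 among classes with 4 values. Smooth muscle-like cells had 11.03 CPM in library 1, no UMI in library 2 and 1.80 CPM in library 3. Pericyte-like cells also held the endothelial gene Cdh5 at 61.3% to 62.9% of the endothelial level in libraries 1 to 3, beside Cxcl9 at 10.5% to 37.6% of it, and the part of mixed droplets in the pericyte values was not tested.

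Among classes of white blood cells other than macrophages, Cxcl9 was high in the dendritic-like class of library 4, a level that cannot be assigned to dendritic cells. The class had 106 CPM in library 1 and 3106 CPM in library 4. Its name rests on Flt3, Itgax and Fscn1, and it had a median of 1290 UMIs per cell and took in subclusters led by genes of other cells. It had 1356 library 4 cells, while the subclusters with dendritic names, described below, held 195 and 55 cells of that library. Granulocyte-like cells were low in libraries 1 to 3, at 22.4, 1.06 and 4.84 CPM. In library 4 only 10 cells took this name and held 11 Cxcl9 UMIs, so its level is not judged. Whether unnamed cells of library 4 are granulocytes was not tested. T/NK-like cells had 10.4, 1.33, 8.69 and 158 CPM in libraries 1 to 4, and B-like cells had 9.27 CPM in library 3 and 390.0 CPM in library 4. In library 4 the lymphocyte values were 4.92% (T/NK-like) and 12.2% (B-like) of the macrophage level. C1qa, C1qb and C1qc, which lymphocytes do not make, stood at 2.85% to 3.25% and 6.31% to 6.39% of theirs in the same cells.

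Cxcl10 was spread over more classes and was less tied to the endothelium. In endothelial-like cells it was 403 CPM in library 1, 35.1 CPM in library 2, 269 CPM in library 3 and 2488 CPM in library 4. In macrophage-like cells it was 127 CPM in library 1, 114 CPM in library 2, 182 CPM in library 3 and 1955 CPM in library 4. Endothelial-like cells were thus the higher class in libraries 1, 3 and 4, and macrophage-like cells in library 2. The pooled values were 1415 CPM in macrophage-like and 387 CPM in endothelial-like cells.

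The fold of endothelial-like over macrophage-like cells for Cxcl10 was 3.02 in library 1, 0.365 in library 2, 1.45 in library 3 and 1.27 in library 4. It passed 2-fold in library 1 toward the endothelium and in library 2 toward macrophages, where 24.6% of all genes passed toward the endothelium and 16.6% toward macrophages.

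Schwann-like cells, the glia of cardiac nerves, were the second highest class for Cxcl10 in library 1 with 342 CPM (309 to 379) and had 134 CPM in library 3. In library 1, 1 Schwann-like cell held 98 of the 377 Cxcl10 UMIs of the class, and the top 10% of cells held 95.2%. The class was shallow, with a median of 2019 UMIs per cell over all libraries. Pericyte-like cells had 237, 15.1 and 155 CPM in libraries 1 to 3, or 58.9%, 42.9% and 57.6% of the endothelial level, where Cdh5 stood at 61.6%, 61.3% and 62.9% of its own. The part of mixed droplets in these values was not tested. Fibroblast-like cells had 155, 15.2, 34.2 and 1765 CPM in libraries 1 to 4. Granulocyte-like cells, low in Cxcl9 in libraries 1 to 3, had 42.3, 64.6 and 218 CPM of Cxcl10 in these libraries. In library 2 they ranked second after macrophage-like cells, and in library 3 second after endothelial-like cells. In library 3, 1 cell held 73 of the 180 Cxcl10 UMIs of the class, so that place rests in part on 1 cell. The granulocyte genes S100a8 and S100a9 are abundant, and S100a8 in the macrophage-like cells of library 2 was 3.98% of its granulocyte level, while Cxcl10 there was 176% of it.

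The highest Cxcl10 level of any large cluster was in cluster 20, which stayed unnamed because of its depth (median 3040.5 UMIs, in a library with a median of 11904). Of its 756 cells, 752 came from library 4. Cxcl10 stood at 6428 CPM and Cxcl9 at 1025 CPM, and Trim30c, Slfn4, Asprv1, Acod1, Hdc and Il1b led it. Granulocyte-like cells had 74.2 CPM of Cxcl10 in the main naming and 1091 CPM with at least 500 genes per cell. Whether cells of cluster 20 took the granulocyte name in that clustering was not tested. The unnamed cells of library 4 together held 6.32% of that library's Cxcl10 UMIs and had Cxcl9 as 15.9% of the UMIs of both ligands, the lowest value in that library among groups with at least 50 cells.

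Ordered by pooled level, Cxcl9 ran from dendritic-like (2427 CPM), macrophage-like (2259 CPM) and endothelial-like cells (926 CPM) through fibroblast-like (353 CPM), pericyte-like (277 CPM), B-like (167 CPM) and T/NK-like cells (140 CPM) to erythroid-like, Schwann-like, cardiomyocyte-like, smooth muscle-like and granulocyte-like cells (78.3 to 2.85 CPM). The first place belongs to a class with a median of 1290 UMIs per cell that took in subclusters led by genes of other cells. Cxcl10 ran from macrophage-like (1415 CPM), dendritic-like (1353 CPM) and endothelial-like cells (387 CPM) through fibroblast-like, pericyte-like, Schwann-like, B-like, T/NK-like and smooth muscle-like cells (274 to 131 CPM) to granulocyte-like (74.2 CPM), cardiomyocyte-like (22.6 CPM) and erythroid-like cells (11.2 CPM). From the first to the eighth place of either order, the ranges of neighbours over libraries overlapped. These ranges ignore that the classes were measured in the same libraries, so an overlap does not show that neighbours were alike. Within each library Cxcl9 was higher in endothelial-like than in macrophage-like or fibroblast-like cells. Neighbours whose ranges were apart involved erythroid-like or cardiomyocyte-like cells, each measured in library 1 alone. The pooled erythroid-like value of Cxcl9 rested on 1 cell of library 4, which held 115 of its 126 UMIs, and it was 6.87 CPM without library 4. The places of several classes also moved with the clustering. Macrophage-like cells were first for both ligands in each of the 6 other clusterings, and dendritic-like cells were second for Cxcl9 in 3 of them, at 1817, 1288 and 1201 CPM. Granulocyte-like cells were second for Cxcl10 at 1091 CPM with at least 500 genes per cell and at 886 CPM with 20 principal components. Without library 4 endothelial-like cells were first for both, at 204 CPM of Cxcl9 and 221 CPM of Cxcl10.

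Counted by where the transcripts were, macrophage-like cells held 62.9% of all Cxcl9 UMIs and 62.3% of all Cxcl10 UMIs, and endothelial-like cells 22.1% and 14.6%. These classes held 29.8% and 25.5% of the UMIs of all genes. Library 4 held 94.7% of the Cxcl9 and 86.6% of the Cxcl10 UMIs of the whole matrix. Within library 4 macrophage-like cells held 66.1% and endothelial-like cells 18.6% of the Cxcl9 UMIs, beside 62.4% and 5.59% of all UMIs. Within libraries 1 to 3 endothelial-like cells held 82.7% to 90.5% of the Cxcl9 UMIs, beside 34.8% to 36.8% of all UMIs. Their part of Cxcl10 was 60.4% in library 1, 28.8% in library 2 and 62.3% in library 3. In library 2 macrophage-like cells held 38.4% and granulocyte-like cells 16.7% of Cxcl10.

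To compare shares of positive cells across depths, each cell was thinned to 1000 UMIs and shallower cells were left out. After thinning, Cxcl9 was seen in 20.1%, 1.88%, 11.1% and 94.1% of endothelial-like cells in libraries 1 to 4, and in 3.51%, 0.407%, 0.960% and 76.4% of macrophage-like cells. Before thinning the shares over all libraries were 27.8% in endothelial-like and 68.3% in macrophage-like cells. Thinned shares with Cxcl10 were 12.3%, 1.97%, 11.2% and 60.3% of endothelial-like cells and 7.41%, 8.24%, 6.89% and 60.9% of macrophage-like cells. T/NK-like cells, not a known source of Cxcl9, had 1.15%, 0.629%, 0% and 19.6% after the same thinning, so the macrophage share of library 2 was no higher than this background. In library 4 endothelial-like and macrophage-like cells were close in the share of cells with Cxcl10, while Cxcl9 was found in nearly all endothelial-like cells.

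The transcripts were unevenly spread among cells of a class. In the endothelial-like cells of library 1 the top 10% of cells held 76.3% of the Cxcl9 UMIs, beside 31.8% of all UMIs. In library 4 the top 10% held 42.9%, the median cell had 58 Cxcl9 UMIs and the highest had 1748. Macrophage-like cells of library 4 had a median of 29 Cxcl9 UMIs with 38.2% in the top 10%, and fibroblast-like cells a median of 13 with 57.9%. The high level of library 4 was thus shared by most endothelial-like and macrophage-like cells, of which 94.1% and 76.4% had a Cxcl9 UMI after thinning, while 49.7% of its fibroblast-like cells did. In library 1 the transcripts lay in a minority of endothelial-like cells.

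Both ligands were seen in 5.88%, 0.0680%, 3.74% and 59.0% of thinned endothelial-like cells of libraries 1 to 4. Among thinned endothelial-like cells of library 1, Cxcl10 was found in 29.2% (26.2% to 32.4%) of cells with a Cxcl9 UMI and in 8.07% (7.17% to 9.04%) of the others. The shares were 33.7% and 8.43% in library 3 and 62.7% and 22.5% in library 4, and in library 2 they were 3.61% and 1.94% with intervals that overlapped. Macrophage-like cells of library 4 showed a smaller gap, 62.9% (61.4% to 64.3%) against 54.6% (51.9% to 57.3%). In fibroblast-like cells of library 4 the shares were 57.7% and 53.3%, with overlapping intervals.

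Cells with only 1 of the ligands differed by class in library 4. Of the thinned endothelial-like cells, 59.0% had both, 35.1% had Cxcl9 only and 1.32% had Cxcl10 only. Of the fibroblast-like cells, 28.7% had both, 21.0% Cxcl9 only and 26.8% Cxcl10 only. Macrophage-like cells lay between, with 48.0%, 28.4% and 12.9%.

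The balance of the 2 ligands was followed as the ratio of Cxcl9 to Cxcl10 UMIs, read mainly for how it differed between classes. Whether the 2 transcripts were captured equally well was not tested. Endothelial-like cells had ratios of 1.19, 0.609, 0.686 and 4.03 in libraries 1 to 4. Macrophage-like cells had 1.06, 0.00828, 0.182 and 1.64, and fibroblast-like cells 0.075, 0.0287, 0.258 and 1.62. Some of these ratios rest in part on 1 cell. In macrophage-like cells 1 cell held 201 of 911 Cxcl9 UMIs in library 1, and 1 cell held 127 of 536 in library 3. In fibroblast-like cells of library 3, 1 cell held 108 of 348. Endothelial-like cells had the highest ratio of these 3 classes in every library. Outside these classes, dendritic-like cells of library 1 had a ratio of 3.96, from 107 Cxcl9 and 27 Cxcl10 UMIs. Of these Cxcl9 UMIs, 71 lay in 1 cell.

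In library 2 Cxcl10 was counted almost without Cxcl9 in macrophage-like (0.00828) and granulocyte-like cells (0.0163), and smooth muscle-like cells had 27 Cxcl10 UMIs and 0 of Cxcl9. In library 4 the ratio was 1.02 in T/NK-like and 1.79 in dendritic-like cells, against 0.189 in the unnamed cells. Within each library the ratio differed several-fold between classes.

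**Figure D2:**
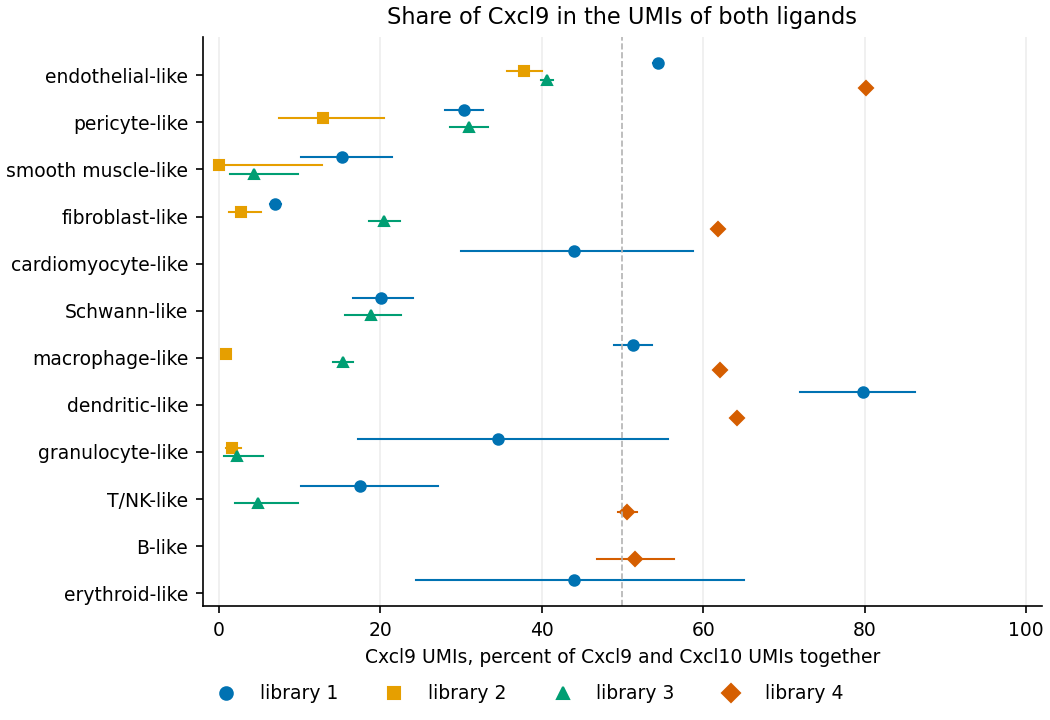
Cxcl9 UMIs as a percent of Cxcl9 and Cxcl10 UMIs together (linear axis from 0 to 100) for each class and library, with 95% exact Clopper-Pearson intervals and a dashed line at equal UMIs. Endothelial-like cells lie above macrophage-like and fibroblast-like cells in every library, and macrophage-like cells of library 2 lie at 0.822%.

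Subclusters showed where within a class the ligands were high. Among 13 endothelial subclusters, subcluster 8 (674 cells, 668 of library 4, led by Ubd, Serpina3g and Cxcl9) had 10469 CPM of Cxcl9 and 2558 CPM of Cxcl10. Subcluster 2 followed with 569 and 500.2 CPM. It held 2472 cells, 2255 of them from library 1, and Isg15 and Ifit1, both interferon-stimulated, led it. In subcluster 5 (Col15a1, Aplnr) Cxcl9 was 369 CPM and Cxcl10 was 449 CPM, and its library 1 cells had 1265 CPM of Cxcl9 beside 278 CPM in its library 3 cells.

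Subclusters named by vessel type were lower. Arterial-like cells (Gja5, Alpl) had 50.6 CPM of Cxcl9 and 115 CPM of Cxcl10, and lymphatic-like cells (Prox1, Lyve1) had 85.2 and 74.4 CPM. In the venous- or endocardial-like cells (Npr3, Selp) Cxcl9 was 27.5 CPM and Cxcl10 was 199 CPM. The capillary-like cells of library 2 had 28.2 CPM of Cxcl9 and 4.61 CPM of Cxcl10, so the order of the ligands was opposite in these 2 groups. Most cells of each subcluster came from 1 or 2 libraries, and vessel type and library cannot be told apart for several of them.

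Macrophage- and dendritic-like cells split into 16 subclusters. The subclusters with the most Cxcl9 held almost only library 4 cells. Subcluster 6, named for nonclassical monocyte genes (Ace, Treml4, Spn), had 3910 CPM of Cxcl9 and 4139 CPM of Cxcl10, and subcluster 1, led by Nos2, the inducible nitric oxide synthase, had 3573 and 1788 CPM. Infiltrating-like cells (Ly6c2, Ccr2) had 2389 and 1961 CPM, and subcluster 7 (Ccl8, C1qc) had 3738 and 1337 CPM. Over these 4 groups Cxcl9 ran from 2389 to 3910 CPM and Cxcl10, which varied more, from 1337 to 4139 CPM. Subclusters 5, 9 and 10 had low depth and were led by genes of lymphocytes, endothelium or fibroblasts. Their ligand levels are not given, but their cells remain in the class values.

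Resident-like subclusters were far lower, but they held 1 and 0 cells of library 4. Macrophage state and library therefore cannot be told apart in this gap. Subcluster 3 (Folr2, Mrc1, Cx3cr1), from libraries 1 and 3, had 39.0 CPM of Cxcl9 and 160 CPM of Cxcl10. Subcluster 12 (Lyve1, Cd163), from library 2, had 0.503 CPM of Cxcl9 and 293 CPM of Cxcl10. Nonclassical-like subcluster 14, of libraries 1 and 3, differed in its balance, and its 70 cells of library 1 had 457 CPM of Cxcl9 and 144 CPM of Cxcl10. Dendritic-like subcluster 8 (Flt3, Xcr1, Clec9a) had 1087 and 624 CPM and mature dendritic-like cells (Ccr7, Fscn1) 577 and 394 CPM. Both were below the pooled levels of the dendritic-like class.

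Among 12 fibroblast subclusters, subcluster 8 held 320 library 4 cells of 321 and had 2829 CPM of Cxcl9 and 1763 CPM of Cxcl10. Subcluster 1, 763 of whose 793 cells came from library 1, had 11.4 CPM of Cxcl9 and 304 CPM of Cxcl10. The 27 mesothelial-gene cells of subcluster 12 (Msln, Upk3b) had 6.28 and 294 CPM. Activated-like fibroblasts (Postn, Cthrc1) had 14.8 and 15.4 CPM.

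**Figure D3:**
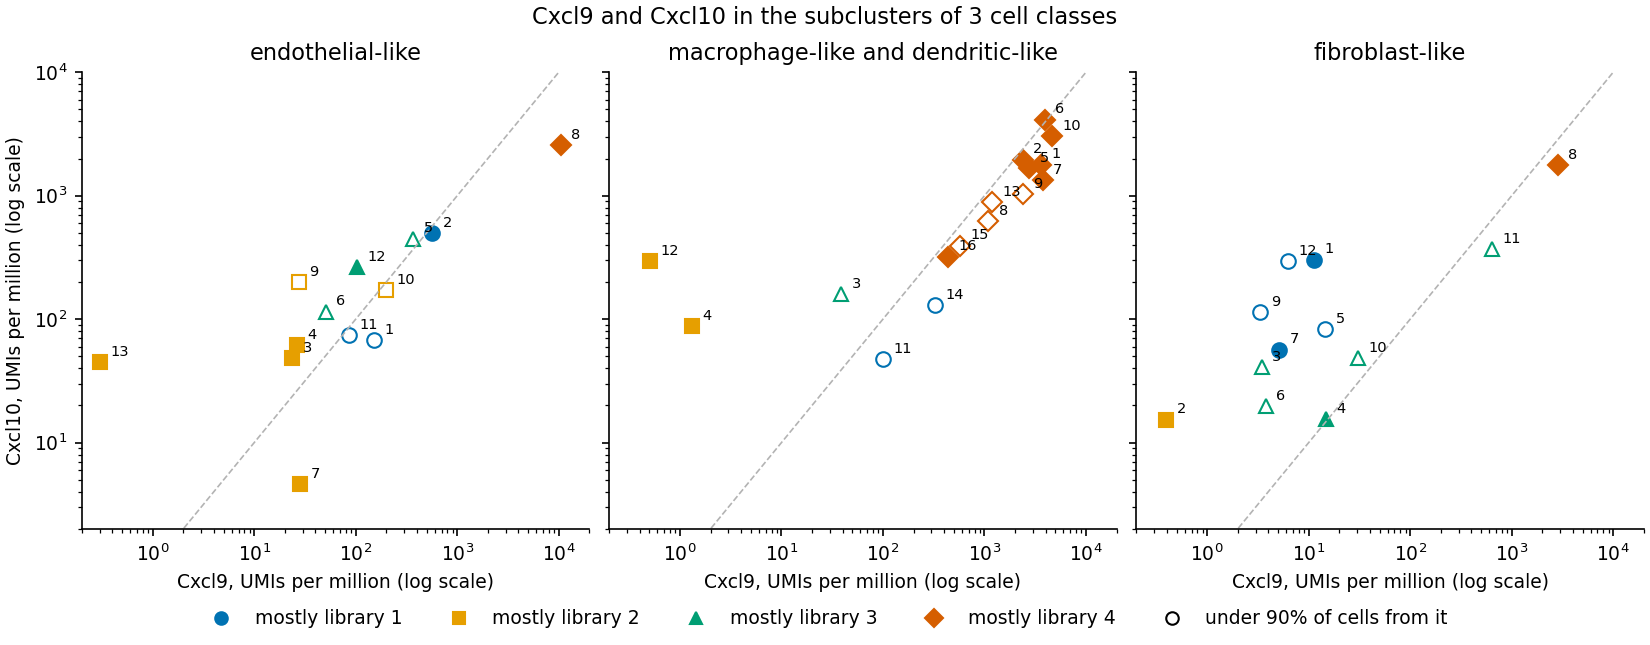
Cxcl9 against Cxcl10 (CPM, both log axes) in the subclusters of endothelial-like, macrophage- and dendritic-like, and fibroblast-like cells, coloured by the library that gave most cells (open where it gave under 90%), with a dashed line where the levels are equal. Subclusters mostly of library 4 lie at the upper right, and the endothelial subcluster with no Cxcl9 UMI (13) is drawn at 0.3.

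Cxcr3 was highest per UMI in T/NK-like cells, and other white cells held a part of its UMIs. T/NK-like cells had 79.5 CPM (76.1 to 83.0) over all libraries, with 90.6 CPM in library 1, 7.99 CPM in library 2, 89.4 CPM in library 3 and 80.8 CPM in library 4, the highest class of each library among those with at least 50 cells. Libraries 1, 3 and 4 had overlapping intervals, and library 2 lay far below them with 6 Cxcr3 UMIs in 164 cells. Of these 164 cells, 158 were in T/NK subcluster 5, which was led by genes of other cells. In library 2, 1 NK cell without CD3 held 4 of the UMIs and 1 CD8 cell held 2, so its order of classes rests on very few cells. T/NK-like cells were 4.42% of cells and held 2034 of 2511 Cxcr3 UMIs, 1825 of them in library 4. A Cxcr3 UMI was seen in 42.5% of them at full depth (median 8470 UMIs) and in 8.61% after thinning.

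Classes that should lack Cxcr3 set the background. Endothelial-like cells had 17 UMIs in 15148 cells, or 0.156 CPM, and 0.0990% of them had a UMI at full depth (median 4700.5 UMIs). In library 4 this was 1.24% of the T/NK level, where Cd3d, a subunit of the T cell receptor complex, was at 1.31% of its own. Smooth muscle-like, cardiomyocyte-like and erythroid-like cells had 0 UMIs. Of 737 smooth muscle-like cells, 0 had a UMI, which allows a share of cells with a UMI of up to 0.407% and does not limit the share that expresses the gene.

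Several other white cells were above that background. Macrophage-like cells had 5.58, 0.0672, 7.84 and 1.44 CPM of Cxcr3 in libraries 1 to 4. In library 3 this was 8.77% of the T/NK level while Cd3d stood at 0.0463% of its own, and in library 1 the values were 6.16% and 0.295%. In library 4 they were 1.78% and 1.10%. In library 3 macrophage-like cells held 127 of 241 Cxcr3 UMIs, more than the 72 of T/NK-like cells, although their level per UMI was lower.

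The macrophage signal lay mostly in resident-like subcluster 3, with 8.60 CPM (7.29 to 10.1), 7.40 CPM in its library 1 cells and 9.06 CPM in its library 3 cells. Nonclassical-like subcluster 14 had no Cxcr3 UMI in 110 cells, where 3 counts would be 2.58 CPM. Dendritic-like subcluster 8 had 15.3 CPM (12.0 to 19.2), at 19.2, 24.5 and 12.6 CPM in libraries 1, 3 and 4. In the dendritic-like class of library 1 Cd3d had no UMI and Cxcr3 was at 27.4% of the T/NK level. B-like cells of library 4 had 27.9 CPM (15.9 to 45.2) from 16 UMIs, with Cd3d at 5.22% of its T/NK level. In the pooled order the ranges over libraries overlapped between T/NK-like and B-like (12.9 CPM) and between B-like and dendritic-like cells (12.4 CPM), and were apart between dendritic-like and macrophage-like cells (2.32 CPM). The remaining classes ran from 0.643 CPM in Schwann-like cells down to 0.

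Lymphocyte subclusters differed in Cxcr3. CD4 T-like cells (535 cells, 520 of library 4) were highest at 143 CPM and gamma-delta T-like cells had 107 CPM. Subcluster 6, from libraries 1 and 3 and led by hemoglobin and cardiomyocyte genes with Cd40lg, had 134 CPM. NK-like cells were lower, at 34.5 CPM in library 4 (subcluster 3) and 65.9 CPM in subcluster 7, mostly of libraries 1 and 3. Cycling cells had 72.5 and 42.1 CPM in their 2 subclusters, and subcluster 4, led by Ifng, had 64.5 CPM. Subcluster 5, mostly library 2 and led by Fabp4 and S100a8, genes of other cells, had 11.1 CPM.

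NK cells were also low when lymphocytes were split by UMIs of their own lineage genes, a split chosen after the data were seen. In library 4, CD4 cells without Foxp3 had 152 CPM of Cxcr3 (138 to 168), CD4 cells with Foxp3, the regulatory T cell factor, had 108 CPM (39 cells), CD8 cells had 69.5 CPM (65.1 to 74.1, 623 cells) and NK cells without CD3 had 24.9 CPM. In library 1 the CD8 cells had 191 CPM (135 to 262, 28 cells) and the CD4 cells without Foxp3 had 135 CPM (75.7 to 223, 13 cells), with intervals that overlapped. NK cells without CD3 had 43.3, 64.6 and 24.9 CPM in libraries 1, 3 and 4, and in library 3 their interval (36.9 to 105) overlapped that of the CD8 cells (78.9 to 183). In library 2, 61 CD8 cells gave 6.15 CPM, from 2 UMIs in 1 cell.

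**Figure D4:**
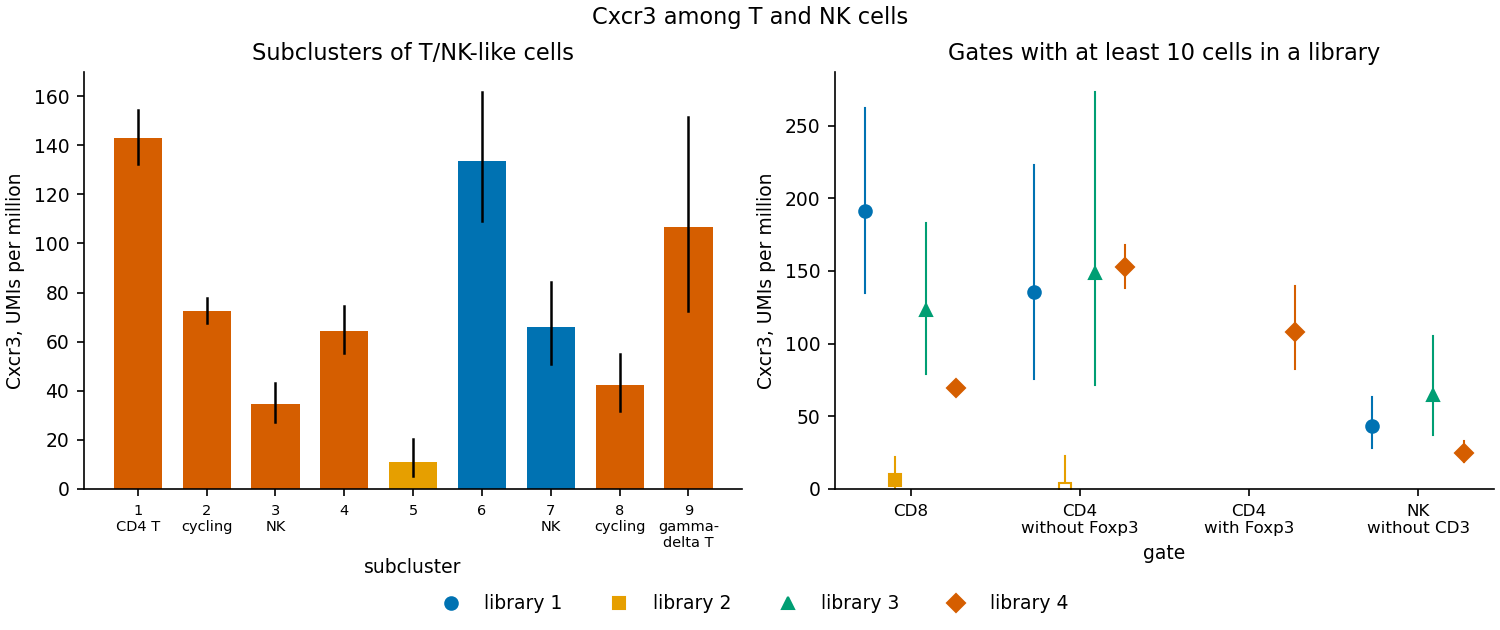
Cxcr3 level (CPM, linear axis from 0) in the 9 subclusters of T/NK-like cells, as bars coloured by the library that gave most cells, and in lymphocytes split by their lineage genes, as 1 point for each library with at least 10 cells. Whiskers are 95% exact Poisson intervals, and an open symbol has 0 UMIs. CD4 T-like cells are highest at 143 CPM, and the subcluster mostly of library 2 is at 11.1 CPM.

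The other genes of the pathway were counted by lists. Over 33 class-by-library sums of at least 50 cells, Pearson's r of log2(CPM + 10) was 0.87 between Cxcl9 and Cxcl10. The sums share libraries and classes, so r is a description. Within libraries 1 to 4 it was 0.66, 0.13, 0.54 and 0.98 over 11, 7, 9 and 6 classes, so the likeness of the ligands rests in part on the gap between libraries. Cxcr3 had an r of 0.04 with either ligand over all sums, and within libraries 1 to 4 the values were −0.11, −0.13, −0.26 and −0.94 with Cxcl9 and −0.26, −0.44, 0.20 and −0.98 with Cxcl10.

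The genes most like Cxcl9 were the guanylate-binding protein genes Gbp3, Gbp5 and Gbp2 and the transcription factor genes Irf7 and Batf2, each at 0.93. Most like Cxcl10 were Gbp7 at 0.88, Cxcl9 at 0.87, and Irf7, Rtp4 and Gbp5 at 0.86. Within library 2 the likeness to Cxcl10 was gone for all 5, with −0.04 for Gbp7, 0.13 for Cxcl9, −0.03 for Irf7, 0.14 for Rtp4 and −0.49 for Gbp5. For the genes most like Cxcl9 it was 0.53 for Gbp3, 0.45 for Gbp5, 0.80 for Irf7, 0.49 for Gbp2 and 0.37 for Batf2 in that library. Most like Cxcr3 were Cd7 and Tbx21 at 0.93 and Klre1, Cst7 and Cd226 at 0.92, of which Tbx21 encodes T-bet, the master factor of type 1 lymphocytes. Among the 7717 other genes tested, 0.544% reached an r of 0.8 with Cxcl9, 0.35% with Cxcl10 and 1.48% with Cxcr3.

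Of 14 interferon gamma-induced genes, 10 reached 0.8 with Cxcl9 (median 0.85, beside 0.08 over all genes) and 6 reached it with Cxcl10 (median 0.77, beside 0.13). Of 14 type I interferon genes 12 were tested, and 3 reached it with Cxcl9 (Irf7, Usp18 and Stat2) and 3 with Cxcl10 (Irf7, Oasl2 and Usp18). None of 6 NF-kB and TNF genes, 4 ligand-handling genes or 10 genes of the interferon gamma axis reached it with Cxcl9. Of 8 type 1 lymphocyte genes, 7 reached it with Cxcr3 (median 0.84) and 0 with Cxcl9.

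**Figure D5:**
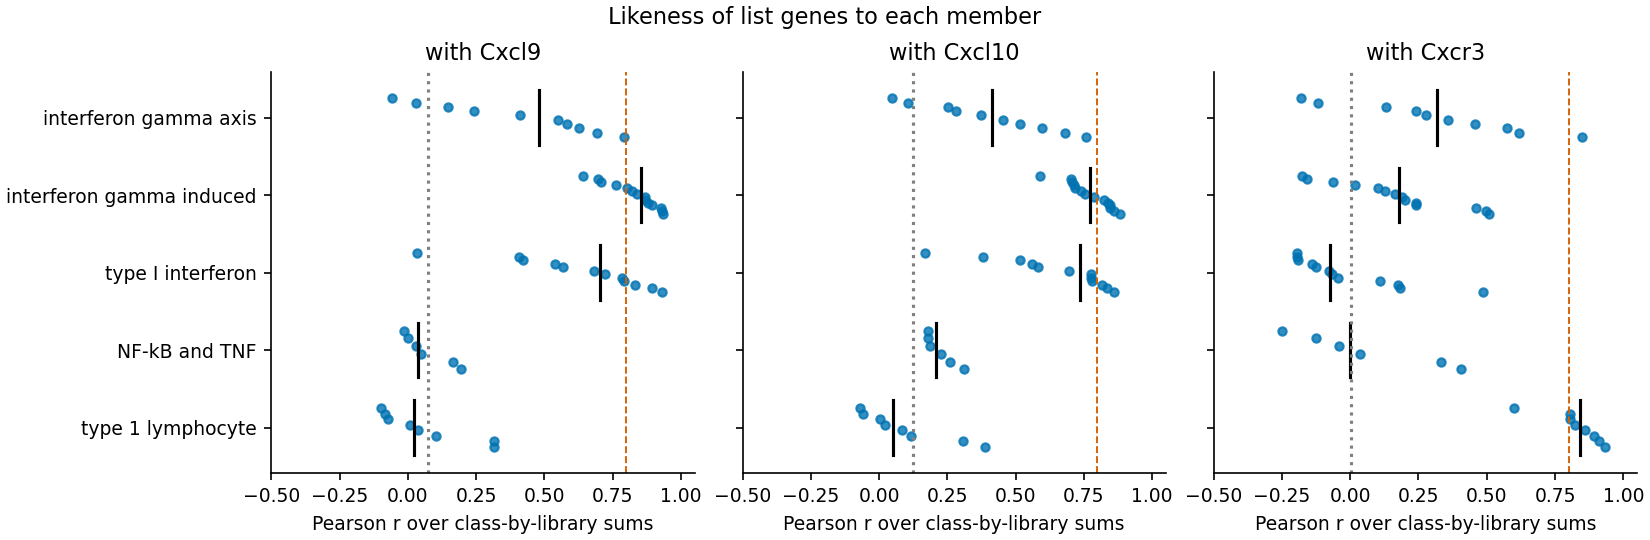
Pearson's r over 33 class-by-library sums between each gene of the lists and Cxcl9, Cxcl10 and Cxcr3, with black ticks for list medians, dotted lines for the median of all genes and dashed lines at 0.8. Interferon gamma-induced genes lie high for the ligands (median 0.85 with Cxcl9) and type 1 lymphocyte genes lie high for Cxcr3 (median 0.84).

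The same lists were compared between macrophage-like and endothelial-like cells on CPM + 10. Pooled over libraries, 8 of 13 interferon gamma-induced genes were past 2-fold higher in macrophage-like cells, as were 18.6% of 4220 genes, and 0 were higher in endothelial-like cells, where 25.7% of all genes were. Within libraries, a comparison added after the data were seen, the direction was the opposite one in libraries 1 and 3, as for Cxcl9. It leaned that way in library 4 with fewer genes past 2-fold, and was mixed in library 2. Past 2-fold higher in endothelial-like cells were 10 of 13 in library 1, 3 of 6 in library 2, 8 of 11 in library 3 and 5 of 14 in library 4, beside 26.1%, 24.6%, 25.7% and 21.1% of all genes. Past 2-fold higher in macrophage-like cells were 0, 2, 0 and 1, beside 16.4%, 16.6%, 15.1% and 18.4% of all genes.

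Single genes of the list, picked after their values were seen, split further. Iigp1, an immunity-related GTPase, was 25.7-, 5.66-, 21.7- and 4.29-fold higher in endothelial-like cells of libraries 1 to 4, and Gbp4 was 8.46-, 5.91- and 6.17-fold higher in libraries 1, 3 and 4. Ido1, which degrades tryptophan, was 12.9-fold higher in endothelial-like cells of library 4. For Gbp2 the fold was 3.33, 4.71, 2.31 and 0.698. For Nos2 the fold was 8.17, 0.412, 6.63 and 0.207, so it was past 2-fold toward macrophage-like cells in libraries 2 and 4. Of the 6 NF-kB and TNF genes, 3, 4, 3 and 3 were past 2-fold higher in macrophage-like cells of libraries 1 to 4 and 0 were higher in endothelial-like cells.

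The upstream genes sat in different cells. Ifng, the gene of interferon gamma, stood in T/NK-like cells at 172 CPM in library 1, at 0 UMIs in library 2, at 158 CPM in library 3 and at 1323 CPM in library 4. Library 4 was highest and library 2 lowest in T/NK Ifng, as in endothelial Cxcl9, and over 4 libraries no test was made. The library 2 value is weak, since 158 of its 164 T/NK-like cells lay in a subcluster led by genes of other cells. Libraries 1 and 3 were close in Ifng, and in library 1, 96 Ifng UMIs lay in 2 CD4 cells without Foxp3.

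Irf1 in the endothelium was instead highest in library 1. In endothelial-like cells Irf1 was 1091, 201, 655 and 743 CPM in libraries 1 to 4, above the macrophage values of 169, 29.98, 90.3 and 487 CPM. Ifnb1, the gene of interferon beta, did not exceed 0.882 CPM in any class and library with at least 50 cells.

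Receptors that take up chemokines without signalling through G proteins were measured too. Ackr3, which binds Cxcl11 and Cxcl12, was 195, 188, 139 and 63.8 CPM in endothelial-like cells of libraries 1 to 4. Cxcl11 had no row, so Ackr3 could not be set beside it. Ackr1, the venular chemokine receptor, was 2.94, 7.80, 3.88 and 25.1 CPM there. Dpp4, a peptidase that trims these ligands, was found in dendritic-like cells of library 1 at 103 CPM.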

How the data were processed

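Single-cell RNA sequencing (10x Genomics 3' v3 chemistry) of 2 allogeneic and 2 syngeneic heart grafts was used. The authors deposited 1 matrix of UMI counts, not normalized, made with Cell Ranger 3.0.0 on mm10 with the annotation of Ensembl release 92. Mitochondrial genes (13) were used for filtering and then removed. Cells with over 200 genes and under 20% mitochondrial UMIs passed (44626 of 53824), and the 5% with the highest score against simulated doublets in each library were left out. Library totals and the depth of cells set the precision, and median UMIs per kept cell were 4571.5 to 11904 by library.

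Leiden clusters were made at a resolution of 0.8 (0.5 for subclusters) from 10 principal components, 30 neighbours and 2000 variable genes, on log values after each cell was brought to 10000 UMIs. A class name needed at least 3 markers that were seen in 10% of cells and were 2-fold over the other clusters. CPM is the gene's UMIs per 1000000 non-mitochondrial UMIs of a class. A level at 0 was read against a floor of 3 counts. Genes were named by a rule: the measured members, list genes by counts with up to 4 examples (highest r), the 5 genes most like each member, and the neighbours of the ligands. Ifng, Irf1, Ifnb1, Iigp1, Gbp4, Ido1 and Nos2, list genes outside that rule's examples, were named after their values were seen, and leading genes of clusters are the top genes by fold. The members and lists were chosen with earlier results of these data known. The scripts were tested on simulated data. Alternatives were a minimum of 500 genes, doublets kept, resolutions of 0.4 and 1.6, 20 principal components, all variable genes, other weights for cells and libraries, and each library left out. Comparisons within libraries, correlations within libraries and the lymphocyte split were added after the data were seen. Python 3.11.15 was used with numpy 2.4.6, pandas 2.3.3, scipy 1.17.1, scikit-learn 1.9.0, igraph 0.11.9, leidenalg 0.10.2 and matplotlib 3.10.9. Promoters came from RefSeq on GRCm38.p6 and gene positions from GENCODE on GRCm38. Protein sequences were not used here. Some genes of the lists are not reported here.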

Additional observations from a re-analysis of the deposited data

Results flagged for a closer look

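The 9198 cells left out for a high mitochondrial share or few genes, with a median of 1071 UMIs, also carried the 3 transcripts and were flagged as signal outside the main measurement. Cxcl9 stood there at 484 CPM, Cxcl10 at 407 CPM and Cxcr3 at 17.5 CPM over all libraries. By library, Cxcl9 was 135, 4.02, 58.0 and 2215 CPM and Cxcl10 was 148, 16.1, 151 and 1553 CPM, beside 195, 8.69, 77.8 and 3024 CPM and 234, 44.9, 151 and 1751 CPM in the kept cells. Cxcr3 was 3.10, 0.803, 3.30 and 79.1 CPM, beside 2.62, 0.112, 2.20 and 14.4 CPM in the kept cells. Library 4 thus had more Cxcr3 per UMI in cells left out than in cells kept. The 2231 cells marked as doublets had 867 CPM of Cxcl9, 736 CPM of Cxcl10 and 5.87 CPM of Cxcr3.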

How the results depend on the processing

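Library 4 decided the pooled levels of both ligands. With each library left out in turn, Cxcl9 ranged from 204 to 1374 CPM in endothelial-like and from 38.6 to 2584 CPM in macrophage-like cells, Cxcl10 from 221 to 562 CPM and from 145 to 1596 CPM, and Cxcr3 in T/NK-like cells from 69.6 to 81.6 CPM, and the lowest ligand values were those without library 4. With libraries weighted equally Cxcl9 was 2679 CPM in endothelial-like and 843 CPM in macrophage-like cells, Cxcl10 was 799 and 595 CPM, and Cxcr3 was 67.2 CPM. As a mean over cells the same levels were 584, 2154, 284, 1494 and 97.2 CPM. In endothelial-like cells Cxcl9 and Cxcl10 were 964 and 402 CPM with at least 500 genes, 972 and 403 CPM at a resolution of 1.6, and 984 and 404 CPM with all variable genes. They were 208 and 233 CPM with doublets kept, 213 and 224 CPM at a resolution of 0.4, and 238 and 257 CPM with 20 principal components, where 677, 682 and 663 of the 687 endothelial-like cells of library 4 went to an unnamed cluster. In macrophage-like cells Cxcl9 was 2249.8 CPM at 0.4, 2284 CPM at 1.6 and 2147 CPM with 20 components, and Cxcl10 was 1432 CPM at 1.6 and 1345 CPM with 20 components. Cxcr3 in T/NK-like cells was 74.0 CPM with doublets kept. Cxcl9 was higher in endothelial-like than in macrophage-like cells of libraries 1, 2 and 3 in each of the 6 other clusterings. No level of Cxcl11 could be computed. No paired analysis was possible because the suffixes carry no graft number. Depth limits Cxcr3 most, and shares of cells with a UMI moved with thinning.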
